A study of Mus musculus with 6 samples.

Results

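The forkhead (Fox) genes encode transcription factors that share a winged-helix DNA-binding domain and are sorted by lettered subfamily. Their expression was read from RNA sequencing of J1 mouse embryonic stem cells. The members were taken by symbol, as all genes named Foxa to Foxs with a number, leaving out Foxa1, Foxa2 and Foxh1, which gave 41 genes among 20462 distinct symbols. Averaged over the 6 libraries, 17 of them reached 1 FPKM and 24 did not. FPKM scales reads to transcript length and sequencing depth, so levels can be set side by side between genes.

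The cells were J1 embryonic stem cells of strain 129S4/SvJae, grown on gelatin with the cytokine LIF. Unmodified wild-type cells were set beside cells carrying either a scramble or a Carm1 short hairpin RNA (shRNA). Carm1 encodes an arginine methyltransferase that acts as a transcriptional coactivator. Each line was treated for 48 h with the ethanol vehicle or with 1 µM retinoic acid (RA), the vitamin A derivative that drives these cells to differentiate. Each line and treatment gave 1 library, and the Carm1 shRNA is represented by 1 line, so a difference of that line cannot be told apart from other differences between lines. Where 3 values stand together below, the first is wild-type, the second scramble shRNA and the third Carm1 shRNA.

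Some forkhead factors act in nearly every cell. The FOXO proteins answer to insulin and growth factors, since the kinase AKT phosphorylates them and so keeps them out of the nucleus, and FOXM1 drives genes of mitosis. Others mark lineages. FOXD3 keeps pluripotent cells and neural crest in their state, FOXF and FOXC proteins pattern mesoderm, and FOXJ1 switches on motile cilia. Pluripotent cells therefore hold a mixture of general and stage-specific forkhead factors, and differentiation is known to exchange the latter.

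The depth was approximated by taking the most common low product of FPKM and transcript length as the step of 1 read. It came to about 25100000 reads in the scramble vehicle library and 30500000 to 34000000 reads in the other 5. The peak at that step was 2.59 to 3.19 times its local median, so these depths are rough. Carm1 was 8.49 and 6.73 FPKM in the line with its shRNA (vehicle and RA), against 29.5 to 37.0 FPKM in the other 4 libraries. The pluripotency marker Pou5f1 was 1135 to 1206 FPKM with vehicle and 467 to 725 FPKM with RA. Of 10 pluripotency markers 7 fell with RA and 0 rose, where 20.7% of all genes fell and 42.9% rose. The summed level of 11 extraembryonic endoderm markers was 117 to 139 FPKM with vehicle and 255 to 334 FPKM with RA, and 7 of the 7 that could be tested were called higher, of which Gata6 and Dab2 could be tested only because of their RA libraries. Sparc was the largest part of that sum, at 85.1 to 105 FPKM with vehicle and 128 to 217 FPKM with RA. The other 4 averaged under 1 FPKM and were not tested. Of these Afp and Ttr stayed under 0.1 FPKM in every library, and Gata4 and Sox17 were higher with RA in each line. For 9 fibroblast and feeder cell markers the sum was 2.53 to 3.47 FPKM with vehicle and 10.2 to 19.3 FPKM with RA, with Col3a1, Postn and Lum under 0.1 FPKM in every library. The rise was mostly Pdgfrb, at 0.921 to 1.32 FPKM with vehicle and 6.32 to 12.0 FPKM with RA. Of the 4 tested, 3 were called higher, of which Col1a1 and Col1a2 could be tested only because of their RA libraries, and Thy1 fell. The sums for 8 trophoblast markers were 11.1 to 16.6 FPKM with vehicle and 28.4 to 45.1 FPKM with RA. Their rise was largest in the keratin genes Krt8 (3.90 to 5.74 FPKM and 10.7 to 24.0 FPKM) and Krt18 (1.07 to 1.88 FPKM and 6.71 to 11.9 FPKM). Tfap2c was also called higher, Eomes was not called and Elf5 was 0 FPKM in every library. Cdx2, Krt7 and Hand1 averaged under 1 FPKM and were not tested. Cdx2 was 0.103 to 0.196 FPKM with vehicle and 0.885 to 1.06 FPKM with RA. For 8 mesoderm markers the sums were 3.38 to 5.03 FPKM and 6.44 to 7.02 FPKM. Of the 2 tested, Meox1 (0.442 to 0.781 FPKM and 1.21 to 4.39 FPKM) was called higher, tested only because of its RA libraries. Eomes was not called, and the other 6 averaged under 1 FPKM and were not tested. For 8 neural markers the sums were 129 to 147 FPKM and 101 to 139 FPKM. The neural sum is mostly the tubulin gene Tubb3. Of the 6 tested neural markers 3 rose (Nes, Pax6 and Sox1), 2 fell (Tubb3 and Elavl3) and Map2 was not called. Neurod1 averaged under 1 FPKM and was not tested, at 1.07 to 2.06 FPKM with vehicle and 0.344 to 0.426 FPKM with RA. Dcx stayed under 0.1 FPKM in every library. The part of these shifts in the results below was not tested, and in bulk RNA fewer cells of a type and less RNA per cell cannot be told apart.

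Start-site sequence was available from RefSeq (build GRCm38) for 26 of the 41 genes, in 29 windows of 300 bases that run from 250 bases before the start to 50 after it. Shown are Foxd3, the member that fell furthest with RA, and Foxk2 and Foxn3, the members that rose and whose windows hold AGGTCA, the core that retinoic acid receptors recognise. Capitals mark that core, read on the opposite strand as TGACCT.
Foxd3 (chr4:99656049-99656348, plus strand): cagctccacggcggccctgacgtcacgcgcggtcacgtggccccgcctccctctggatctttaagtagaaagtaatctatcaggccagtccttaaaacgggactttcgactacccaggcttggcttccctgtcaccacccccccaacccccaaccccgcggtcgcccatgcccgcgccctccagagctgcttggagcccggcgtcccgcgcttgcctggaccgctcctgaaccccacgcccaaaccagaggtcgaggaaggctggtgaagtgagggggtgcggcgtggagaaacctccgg
Foxk2 (chr11:121259737-121260036, plus strand): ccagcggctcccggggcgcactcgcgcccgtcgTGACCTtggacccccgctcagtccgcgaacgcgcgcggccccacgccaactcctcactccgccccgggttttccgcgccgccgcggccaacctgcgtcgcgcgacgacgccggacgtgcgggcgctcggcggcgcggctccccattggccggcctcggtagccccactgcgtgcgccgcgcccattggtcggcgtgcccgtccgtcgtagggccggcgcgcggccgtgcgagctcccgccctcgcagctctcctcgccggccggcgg
Foxn3 (chr12:99450025-99450324, minus strand): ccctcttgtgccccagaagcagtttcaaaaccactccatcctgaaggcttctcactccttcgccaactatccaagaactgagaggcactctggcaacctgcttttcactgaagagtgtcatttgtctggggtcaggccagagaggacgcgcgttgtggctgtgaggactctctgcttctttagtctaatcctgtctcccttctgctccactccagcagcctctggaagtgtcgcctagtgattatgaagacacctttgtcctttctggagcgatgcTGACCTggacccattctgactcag

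Searched on both strands, AGGTCA stood in 5 of the 29 forkhead windows (Foxe3, Foxi2, Foxk2, Foxn3 and Foxp3) and in 16.2% of all 32544 mouse start windows. Of these genes Foxe3 was 0 FPKM in every library, Foxi2 was at most 0.0345 FPKM and Foxp3 was lower with RA. A direct repeat of AGGTCA with 5 bases between was in 0 of the 29 forkhead windows and 0.00922% of all. The forkhead core GTAAACA was in 0 of the 29 forkhead windows and 3.66% of all, and the octamer ATGCAAAT bound by OCT4 was in 0 and 1.75%. These are matches of letters in a short window and say nothing of binding elsewhere. The forkhead windows were rich in CpG, the dinucleotide that carries DNA methylation. The median was 22 CpG per window, with 31 for the 11 genes at a mean of at least 1 FPKM and 11 for the 15 genes under it. For all genes of the deposited table the same medians were 21 and 4. The 3 windows shown differ in this respect, with 59 CpG in Foxk2, 25 in Foxd3 and 6 in Foxn3.

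The most abundant forkhead mRNAs with vehicle were those of the mitotic factor Foxm1, the insulin-responsive factors Foxo4 and Foxo3, the repressors Foxp4 and Foxk2, Foxn2 and the pluripotency factor Foxd3, each between 17.4 and 34.8 FPKM in every vehicle library. The vehicle ranges of Foxm1, Foxo4, Foxp4 and Foxd3 overlapped one another, as did those of Foxo3, Foxk2 and Foxn2, so the order within these sets is not beyond the spread between lines. Foxj3 followed at 13.5 to 14.7 FPKM, and Foxp1, Foxk1, Foxo1 and Foxn4 lay between 5.03 and 9.92 FPKM. Foxn3, Foxo6, Foxj2 and Foxr1 lay between 1.34 and 3.80 FPKM with vehicle. By subfamily, the 4 Foxo genes together made up 23.5% to 31.8% of the summed forkhead FPKM in the 6 libraries. The Foxd subfamily, almost all of it Foxd3, made up 10.5% to 14.2% with vehicle and 1.37% to 4.56% with RA.

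**Figure D1:**
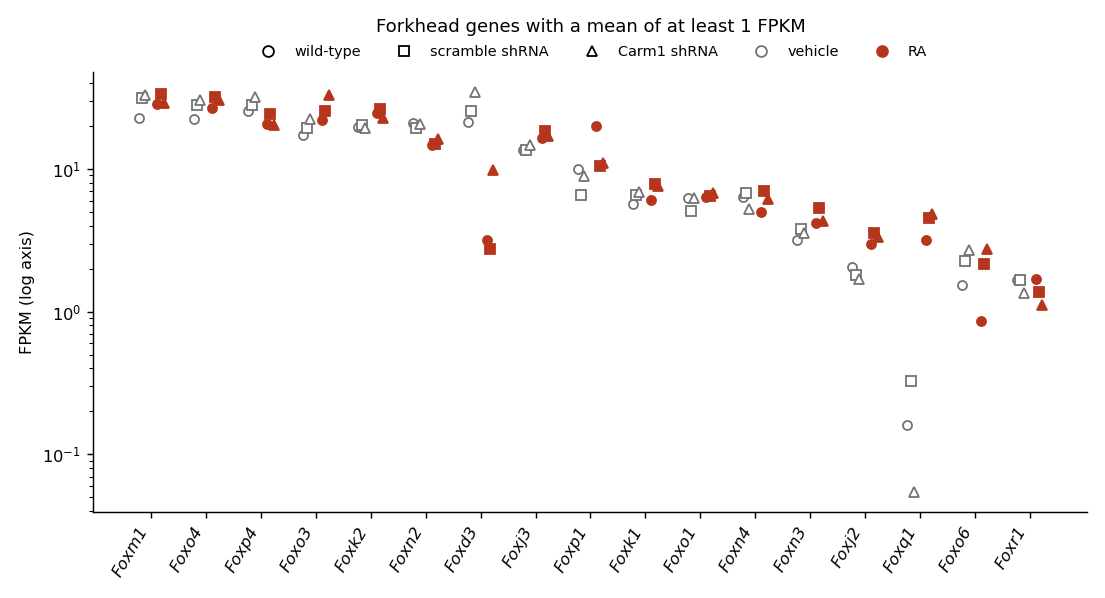
FPKM on a log axis of the 17 forkhead genes that averaged 1 FPKM or more, ordered by mean, with 1 point per library (open grey, vehicle; filled red, RA; circles, squares and triangles for the wild-type, scramble shRNA and Carm1 shRNA lines). Foxd3 drops from at least 21.1 to at most 9.74 FPKM and Foxq1 climbs from at most 0.329 to at least 3.16 FPKM, whereas the other 15 genes move little on this scale.

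RA raised 7 of the 17 tested forkhead genes and lowered 3, and 7 did not pass the test (limma on log2(FPKM + 1), with the line as block and p-values adjusted by the Benjamini-Hochberg method over 11227 genes). Over all genes tested 42.9% were called higher and 20.7% lower, so the family's counts are near the background. Every RA library lay above every vehicle library in 7 of the 17 members and below in 3. The same held for 40.5% and 20.5% of all genes tested, so separate groups are also near the background. The median log2 change was 0.14 for the 17 members and 0.14 for all genes. That general shift depends on scaling, as the median of all genes was 0.0015 with libraries scaled by median ratios (5 members higher, 3 lower) and -0.05 with quantile normalization (3 higher, 8 lower). Foxq1 reached the mean of 1 FPKM only through its RA libraries and so had to differ, and 6 members were called higher apart from it. Without the scramble line 3 members were higher, Foxj2, Foxo3 and Foxq1, and 3 lower.

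Of the factors tied to pluripotency, Foxd3 (build mm9, chromosome 4, 99322990 to 99325362), which sustains stem cell and neural crest identity, fell in every line. It stood at 21.1, 25.5 and 34.8 FPKM with vehicle, and at 3.18, 2.75 and 9.74 FPKM with RA. All 3 RA libraries lay below all 3 vehicle libraries, and the Carm1 shRNA line was highest under either treatment. The log2 change was -2.32 ± 0.20 (SE; limma, adjusted p = 0.00096; lower in 3 of 3 lines), and the call held in all 10 alternatives, where the change ranged from -2.61 to -2.07. The RA level was 0.15, 0.108 and 0.28 of the vehicle level.

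Foxq1 (chromosome 13, 31650039 to 31652843), a factor of epithelia and hair, had the largest increase among the tested members. Its vehicle levels were 0.161, 0.329 and 0.0548 FPKM, about 14.2, 23.1 and 4.7 reads, and its RA levels were 3.16, 4.52 and 4.82 FPKM. The groups were far apart, with the lowest RA library well above the highest vehicle library. The fitted log2 change was 2.12 ± 0.13, given as a description, since the gene was tested only because of its RA libraries. With so few vehicle reads the ratio of levels is loosely set, at 19.6-fold, 13.7-fold and 87.9-fold in the 3 lines. Foxq1 and Foxd3 were also the only tested members that changed at least 2-fold on the FPKM + 1 scale in any line, Foxq1 up and Foxd3 down in each. Over all genes, 6.22%, 11.4% and 9.49% rose that far, and 1.23%, 1.89% and 1.78% fell that far.

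**Figure D2:**
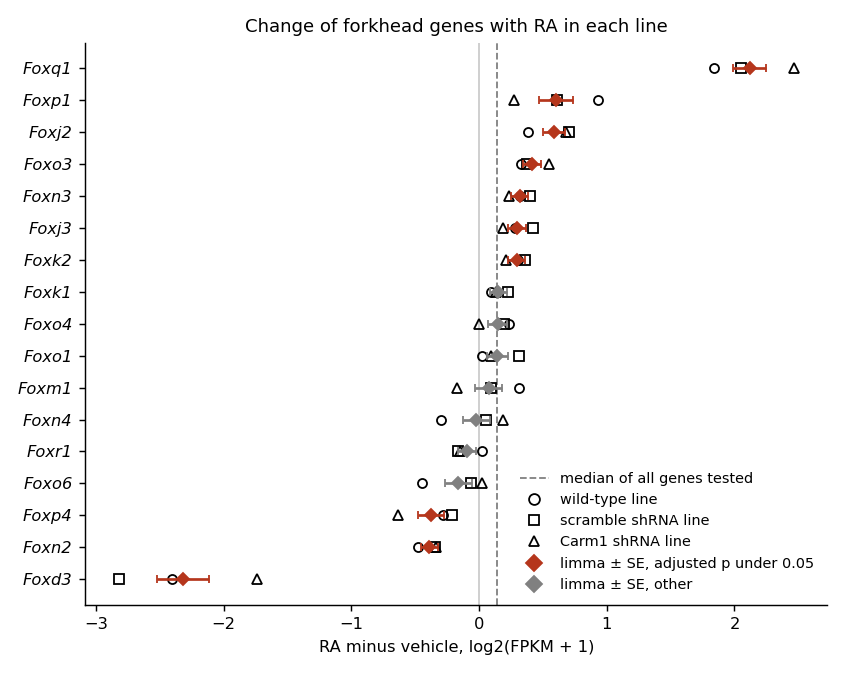
RA minus vehicle on the log2(FPKM + 1) scale for the 17 tested forkhead genes, with open symbols for each line and diamonds for the limma estimate ± SE (red where the adjusted p was under 0.05). The dashed line is the median of all genes tested, 0.14; 15 of the 17 estimates are at most 0.60 in size, and Foxq1 (2.12) and Foxd3 (-2.32) stand apart.

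Among the FOXO genes, 1 of 4 rose. Foxo3, a factor of stress resistance and cell survival, went from 17.4, 19.3 and 22.3 FPKM to 22.1, 25.2 and 33.0 FPKM. It was higher with RA in each line, although the groups overlap because the wild-type RA library lay just under the Carm1 shRNA vehicle library. The log2 change was 0.41 ± 0.07 (limma, adjusted p = 0.00592), and the call ended in 1 of 10 alternatives, the fit without the line as block. Foxo1, the factor of insulin-regulated metabolism, was 6.24, 5.03 and 6.29 FPKM with vehicle and 6.37, 6.47 and 6.79 FPKM with RA. Every RA library lay above every vehicle library, by little. The log2 change of Foxo1, 0.14 ± 0.08, did not pass (limma, adjusted p = 0.172), and quantile normalization turned it to -0.20. Foxo4 (0.14 ± 0.08) and Foxo6 (-0.16 ± 0.11), the latter best known from brain, did not pass either. Foxo6 was 1.54, 2.28 and 2.69 FPKM with vehicle and 0.866, 2.14 and 2.74 FPKM with RA, lower with RA in the first line (0.56 of vehicle) and close to vehicle in the others (0.94 and 1.02). Quantile normalization called Foxo6 lower (-0.70).

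Among the FOXP repressors, whose proteins pair through a leucine zipper, Foxp1 rose and Foxp4 fell. Foxp1 went from 9.92, 6.52 and 8.85 FPKM to 19.9, 10.5 and 10.9 FPKM, and the wild-type RA library stood apart at the top. The log2 change was 0.60 ± 0.13 (limma, adjusted p = 0.012). Foxp1 is known to be spliced differently in pluripotent cells, and gene-level FPKM do not separate its isoforms. Its call ended in 4 of 10 alternatives, among them the fit without the scramble line. Foxp4, a partner of Foxp1 in lung and gut, fell from vehicle levels of 25.3, 28.2 and 31.9 FPKM to 20.6, 24.3 and 20.2 FPKM (log2 -0.38 ± 0.10; limma, adjusted p = 0.0233). Every RA library was below every vehicle library. The Foxp4 call ended without the Carm1 shRNA line, where the change was -0.25, and without a filter on low values.

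Both FOXK genes are expressed in most cells and encode repressors that recruit the SIN3 complex and the deubiquitinase BAP1. Foxk2 went from 19.8, 20.3 and 19.4 FPKM to 24.7, 26.4 and 22.6 FPKM. The groups did not overlap (log2 0.29 ± 0.07; limma, adjusted p = 0.0132), but the call ended after median-of-ratios scaling and without the scramble line. Foxk1 was 5.64, 6.56 and 6.90 FPKM with vehicle and 6.08, 7.84 and 7.65 FPKM with RA, and its change of 0.15 ± 0.07 did not pass (limma, adjusted p = 0.0958). After quantile normalization the Foxk1 change was -0.18 and was called lower.

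The FOXN and FOXJ genes moved modestly and not in 1 direction. Foxn2, a factor of little-known function, fell from 20.9, 19.3 and 20.7 FPKM to 14.7, 15 and 16.2 FPKM (log2 -0.39 ± 0.07; limma, adjusted p = 0.00542). Its groups were well separated, and the call held in all 10 alternatives. Foxn3, a repressor linked to the DNA damage checkpoint, rose from 3.17, 3.80 and 3.53 FPKM to 4.21, 5.34 and 4.32 FPKM (0.32 ± 0.07; limma, adjusted p = 0.0107). Quantile normalization turned the Foxn3 change to -0.10, and the call also ended without the scramble line. Foxn4, a factor of retinal progenitors, was 6.40, 6.76 and 5.26 FPKM with vehicle and 5.02, 7.05 and 6.10 FPKM with RA (-0.02 ± 0.11), with no common direction over the lines. Quantile normalization called Foxn4 lower (-0.37).

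Foxj2 rose from 2.07, 1.82 and 1.69 FPKM to 2.99, 3.58 and 3.32 FPKM (log2 0.59 ± 0.09; limma, adjusted p = 0.00362), with every RA library above every vehicle library. Foxj3, a regulator of muscle and sperm cells, rose from 13.5, 13.6 and 14.7 FPKM to 16.5, 18.6 and 16.9 FPKM (0.30 ± 0.07; limma, adjusted p = 0.0182). The Foxj2 call ended in 2 of 9 alternatives and the Foxj3 call in 4 of 10, among them the fit without the scramble line.

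Foxm1, which drives mitotic genes, did not pass the test. It was 22.9, 31.4 and 32.9 FPKM with vehicle and 28.6, 33.6 and 29.0 FPKM with RA (log2 0.08 ± 0.11; limma, adjusted p = 0.552), higher with RA in the control lines and lower in the Carm1 shRNA line. Its annotated span overlaps that of 4933413G19Rik by 377 bases, and reads there cannot be assigned without strand. Foxr1 lay between 1.11 and 1.70 FPKM in all 6 libraries (-0.10 ± 0.07; called lower with quantile normalization, -0.60).

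Of the 24 members under a mean of 1 FPKM, 4 were listed at 0 in every library, namely Foxb2, the lens gene Foxe3, the inner ear and kidney gene Foxi1 and the thymus gene Foxn1. The other 20 stayed out of the test and are described by their values; with no filter on low values, Foxc1 and Foxf2 among them were called higher. Foxr2 was the 1 member of these to reach 1 FPKM in any library, at 0.863, 1.41 and 1.27 FPKM with vehicle and 0.521, 0.369 and 0.405 FPKM with RA. Of the 20, 9 had every RA library above every vehicle library and 4 had every RA library below. The same held for 37.1% and 4.22% of the 6014 genes in that range of mean FPKM.

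The 4 lower genes were Foxr2, the motile cilia regulator Foxj1, the liver and endoderm factor Foxa3 and the regulatory T cell factor Foxp3. Foxj1 was 0.752, 0.900 and 0.743 FPKM with vehicle and 0.624, 0.641 and 0.370 FPKM with RA. In reads this was about 61.7, 59.2 and 59.3 against 55.7, 52.6 and 32.1, a small difference in the wild-type and scramble lines. Foxa3 was 0.762, 0.687 and 0.482 FPKM with vehicle and 0.393, 0.247 and 0.311 FPKM with RA, about 29.9 to 48.6 reads against 15.7 to 27.2. Foxp3 did not exceed 0.05 FPKM, and its span overlaps that of Ccdc22 by 1435 bases.

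The 9 higher genes were Foxf1, Foxf2, Foxc1, Foxc2, Foxl2, Foxd1, Foxd2, Foxi3 and Foxp2. Foxf1, a factor of the mesoderm around the gut, was 0.0149, 0 and 0 FPKM with vehicle and 0.337, 0.978 and 0.193 FPKM with RA, about 1.1, 0 and 0 reads against 27.7, 73.9 and 15.5. Its relative Foxf2 was at most 0.0162 FPKM with vehicle and 0.236 to 0.313 FPKM with RA. Foxc2, a factor of mesoderm and lymphatic vessels, was at most 0.0272 FPKM with vehicle and 0.281, 0.45 and 0.0986 FPKM with RA. Foxc1, which acts in eye, vessel and bone formation, was at most 0.0404 FPKM with vehicle and 0.172 to 0.239 FPKM with RA. For Foxf1 and Foxc2 the scramble line was highest with RA and the Carm1 shRNA line lowest.

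Foxl2, the ovarian granulosa cell factor, was 0.0459 to 0.0880 FPKM with vehicle and 0.278, 0.504 and 0.175 FPKM with RA. The kidney stroma factor Foxd1 was 0.0822 to 0.154 FPKM with vehicle and 0.215 to 0.337 FPKM with RA. Foxd2 was at most 0.0584 FPKM with vehicle and 0.110, 0.147 and 0.45 FPKM with RA. Foxi3, a factor of ectodermal placodes, was 0.0907 to 0.176 FPKM with vehicle and 0.195 to 0.462 FPKM with RA. Foxp2, known from brain and speech circuits, was at most 0.0173 FPKM with vehicle and 0.0618, 0.394 and 0.243 FPKM with RA. With RA, the Carm1 shRNA library was the highest of the 3 lines for Foxd2 and Foxi3 and the lowest for Foxl2, so these low genes had no common order of lines with RA. With vehicle, it was the lowest for Foxd2 and Foxi3. In the other 7 members of this group, among them the thyroid factor Foxe1, Foxl1, Foxd4, Foxb1, Foxs1 and Foxi2, vehicle and RA libraries overlapped and no library exceeded 0.181 FPKM.

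**Figure D3:**
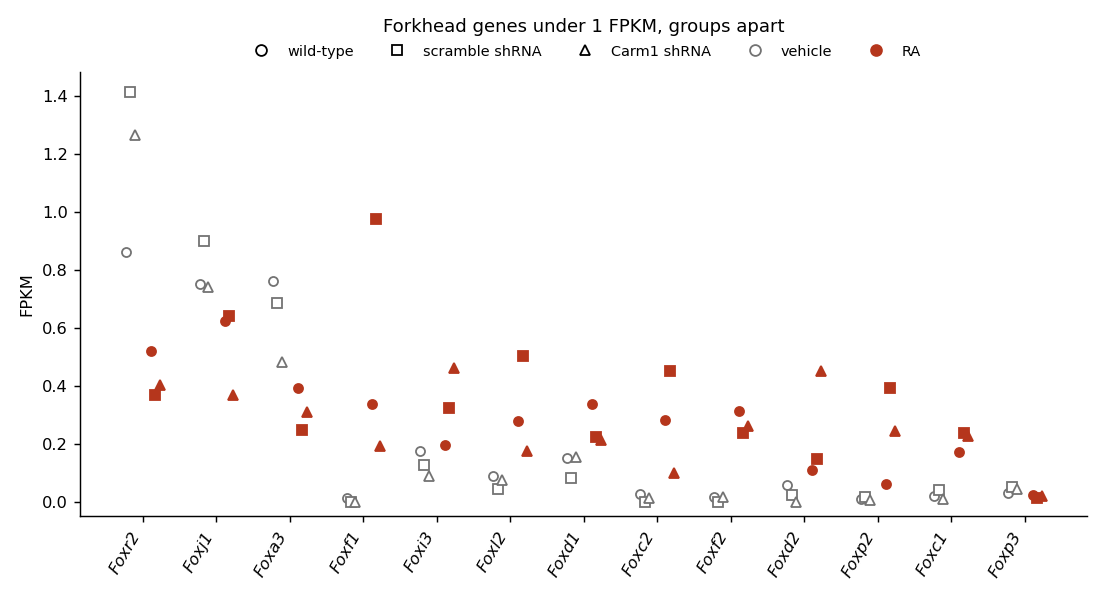
FPKM on a linear axis of the 13 forkhead genes with a mean under 1 FPKM whose vehicle and RA libraries did not overlap, ordered by mean, with 1 point per library (open grey, vehicle; filled red, RA). Foxr2, Foxj1, Foxa3 and Foxp3 lie lower with RA, and 9 genes from Foxf1 to Foxc1 lie higher with RA, all of them under 1 FPKM.

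Several of these genes lie side by side. On chromosome 13 (mm9, 31650039 to 31902504) Foxq1, Foxf2 and Foxc1 stand 64.8 kb and 175 kb apart with 0 other genes of the deposited table between them. Each had every RA library above every vehicle library. The same held for 40.5% of all genes at a mean of at least 1 FPKM and 37.1% of those under it and above 0. Foxq1 reached that mean only through its RA libraries, and whether neighbours changed together was not tested. Their RA levels were unequal, 3.16 to 4.82 FPKM for Foxq1 and under 0.32 FPKM for the other two. On chromosome 8 (123608286 to 123654544) Foxf1, Foxc2 and Foxl1 stand 28.0 kb and 8.79 kb apart, with 1 other gene between the first pair. Foxf1 and Foxc2 also had every RA library above every vehicle library, to be read against the same 37.1%. Foxl1 stayed between 0.0221 and 0.0661 FPKM with overlapping groups. On chromosome 4, Foxe3, 16.2 kb from Foxd2, was listed at 0 in all 6 libraries.

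Whether the lines differed was asked with contrasts over both treatments in the same limma fit. Between the Carm1 shRNA and the scramble line 0 of 17 forkhead genes passed, against 0% of all genes higher and 0.0178% lower. At an unadjusted p under 0.05 there were 2 of 17, and 1188 of all genes. Those were Foxd3, with a difference of 0.98 ± 0.25 (limma, adjusted p = 0.292), and Foxo3, with 0.29 ± 0.09 (limma, adjusted p = 0.362). Both were higher in the Carm1 shRNA line under each treatment, and the test does not set them apart from the spread between libraries. Between the scramble and the wild-type line 0 of 17 passed as well, with 0.748% of all genes higher and 1.04% lower. Here 6 of 17 had an unadjusted p under 0.05, as did 2680 of the 11227 genes. The members with the smallest adjusted p were Foxp1, lower in the scramble line by a log2 difference of -0.70 ± 0.16 (limma, adjusted p = 0.0909), and Foxo6, higher by 0.56 ± 0.13 (limma, adjusted p = 0.0929). With limma's trend option the Foxp1 difference passed and was the only member to do so in that contrast.

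Against the wild-type line, a contrast added after the values were seen, the Carm1 shRNA line was higher in 1 member, Foxo6 (0.77 ± 0.13; limma, adjusted p = 0.0423), where 2.92% of all genes were called higher and 2.76% lower. In the wild-type line Foxo6 was 1.54 FPKM (vehicle) and 0.866 FPKM (RA), and in the Carm1 shRNA line 2.69 and 2.74 FPKM. The scramble line lay nearer to the Carm1 shRNA line, at 2.28 and 2.14 FPKM. The Foxo6 call ended in 3 of the 5 alternatives in which the gene was tested.

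**Figure D4:**
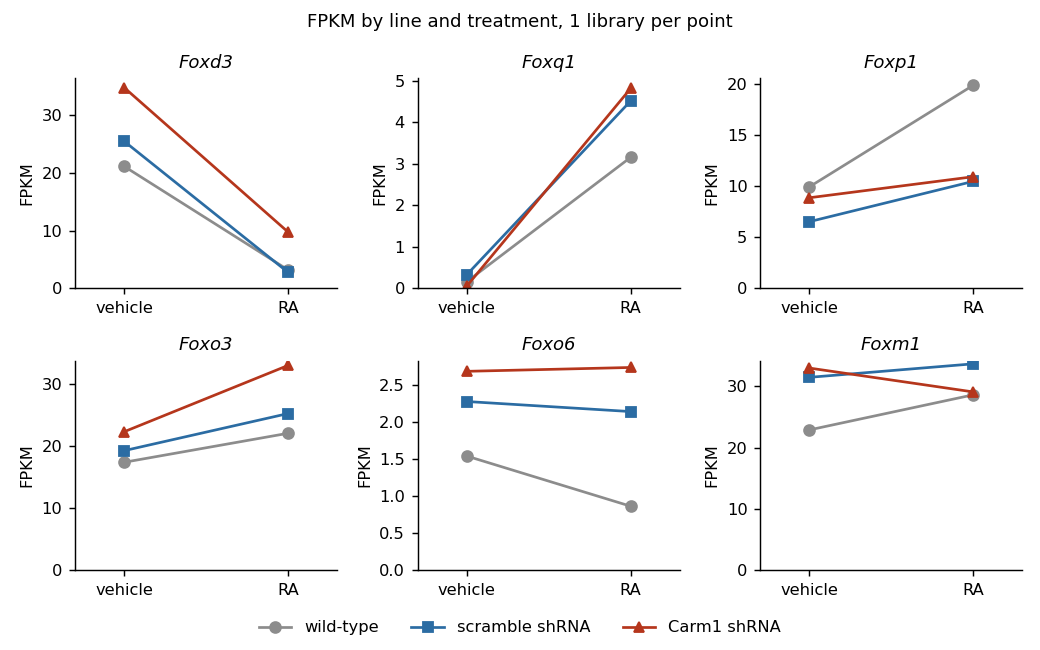
FPKM with vehicle and RA, on linear axes from 0, for Foxd3, Foxq1, Foxp1, Foxo3, Foxo6 and Foxm1, with 1 library per point and a line joining the libraries of each cell line. The Carm1 shRNA line is highest for Foxd3 and Foxo3 under both treatments, the wild-type line stands apart for Foxp1 with RA (19.9 FPKM), and Foxm1 is lower with RA in the Carm1 shRNA line alone.

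By size within a treatment, Foxd3 with RA was the 1 forkhead gene at least 2-fold (on FPKM + 1) above both other lines in the Carm1 shRNA line, where 0.169% of all genes were that much higher and 0.143% lower. With vehicle the count was 0, against 0.0891% and 0.0802% of all genes. Taking wild-type cells instead, the forkhead count was 0 with vehicle (all genes 0.543% higher, 0.0623% lower) and 0 with RA (0.481% and 0.383%). With the scramble line it was 0 with vehicle (0.00891% higher, 0.00891% lower) and 0 with RA (0.0267% and 0.0445%). There is 1 library per line and treatment, so this difference has no replicate check. The RA response itself differed between the Carm1 shRNA line and the mean of the control lines by 0.88 ± 0.23 for Foxd3, whose log2 change was -1.74 in the Carm1 shRNA line and -2.41 and -2.82 in the wild-type and scramble lines. That interaction did not pass (limma, 1 residual degree of freedom before moderation, adjusted p = 1.00 after an unadjusted p = 0.0119). Foxq1, with changes of 2.46 against 1.84 and 2.05, had a difference of 0.52 ± 0.18 (limma, adjusted p = 1.00, unadjusted p = 0.0367). No other member had an unadjusted p under 0.05, and 0% of all genes passed in either direction, with 409 of 11227 at an unadjusted p under 0.05 and 1 past the threshold with limma's trend option.

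Genes that work with forkhead factors were followed in 6 lists, described by the same RA fit. The counts are to be read against 42.9% of all genes higher and 20.7% lower, and the medians against 0.14. Of 31 tested FOXO regulators (32 listed), 14 rose and 5 fell, with a median log2 change of 0.12. The PI3-kinase subunit gene Pik3r1 (1.47 ± 0.12) and the 14-3-3 gene Ywhaq (1.10 ± 0.10) rose, and the deacetylase gene Sirt1 (-0.78 ± 0.08), the kinase gene Sgk1 (-0.57 ± 0.14) and the deubiquitinase gene Usp7 (-0.43 ± 0.08) fell. After median-of-ratios scaling 9 of these regulators were higher and 11 lower. Without the scramble line 2 of the regulators fell, and without the Carm1 shRNA line 3.

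Of 23 tested FOXO target genes (30 listed), 12 rose and 4 fell, with a median of 0.37. Insr and Irs2, which rose, are in this list and also in that of the FOXO regulators, so the lists are not separate. The sestrin gene Sesn3 (1.78 ± 0.18), the pro-apoptotic gene Bcl2l11 (1.49 ± 0.09) and the cyclin G gene Ccng2 (1.37 ± 0.17) rose, and Trib1 (-0.68 ± 0.11), the superoxide dismutase gene Sod2 (-0.64 ± 0.09) and the pro-apoptotic gene Bbc3 (-0.41 ± 0.10) fell. Without the scramble line 2 targets fell. The count that fell was 7 after median-of-ratios scaling. Most of these genes have other known regulators as well.

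Of 25 FOXM1 target genes of G2 and mitosis, all tested, 13 fell and 1 rose, with a median of -0.24. The kinase cofactor gene Cks2 (-0.52 ± 0.07), the mitotic kinase gene Aurka (-0.52 ± 0.08) and the kinetochore gene Cenpf (-0.51 ± 0.09) fell, and the phosphatase gene Cdc25b rose (0.88 ± 0.06). The changes of those that fell were small, with Cks2 the furthest, while Foxm1 itself did not pass. Each of the 13 was lower with RA in every line, and relative to vehicle the fall was smallest in the wild-type line. Birc5 went from 147, 141 and 130 FPKM to 139, 107 and 103 FPKM. Aurka went from 82.7, 62.7 and 61.2 FPKM to 63.7, 39.9 and 41.7 FPKM. Whether the wild-type response differed from that of the shRNA lines was not tested. With the scramble line left out 4 fell, with the Carm1 shRNA line left out 6, and with no filter on low values 3. With the wild-type line left out more than 13 fell.

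Of 19 partner proteins of FOXK and FOXP, 2 rose and 4 fell (median -0.01). The corepressor gene Ctbp2 fell by 1.43 ± 0.14, the SIN3 scaffold gene Sin3a by 0.39 ± 0.07 and Hcfc1 by 0.26 ± 0.06, while Ctbp1 (0.27 ± 0.06) and the deacetylase gene Hdac1 (0.21 ± 0.06) rose. Leaving out the scramble or the Carm1 shRNA line gave 0 that rose and 2 that fell, and 1 rose when wild-type was left out. Of 12 tested FOXD3 partners and neural crest genes (24 listed), 5 rose and 5 fell (median 0.32). The homeobox gene Msx2 (2.22 ± 0.42) rose. The homeobox gene Msx1 (1.75 ± 0.20) and the endothelin receptor gene Ednrb (1.86 ± 0.28) were under 1 FPKM in every vehicle library and were tested only because of their RA libraries, and 3 of the list were called higher apart from them. The pluripotency genes Pou5f1 (-0.94 ± 0.15) and Sox2 (-0.73 ± 0.11) and the receptor gene Ngfr (-0.64 ± 0.19) fell. With the scramble line left out 2 fell, and with the Carm1 shRNA line left out 3. Tfap2b, Pax3, Pax7 and Zic1 stayed under 0.1 FPKM in every library.

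Of 8 tested FOXJ1 targets of motile cilia (20 listed, 17 in the deposited table), 3 rose and 3 fell (median -0.12). The radial spoke gene Rsph9 (1.11 ± 0.25), the tubulin gene Tuba1a (0.58 ± 0.08) and Rfx3 (0.48 ± 0.08) rose, and Rfx2 (-0.62 ± 0.06), the tubulin gene Tubb4b (-0.46 ± 0.08) and Ccdc40 (-0.35 ± 0.08) fell. Tubulin genes have near copies, so their levels are uncertain. Genes near 0 with vehicle could be tested only where RA libraries were higher, and the untested members of each list are not covered by its counts.

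**Figure D5:**
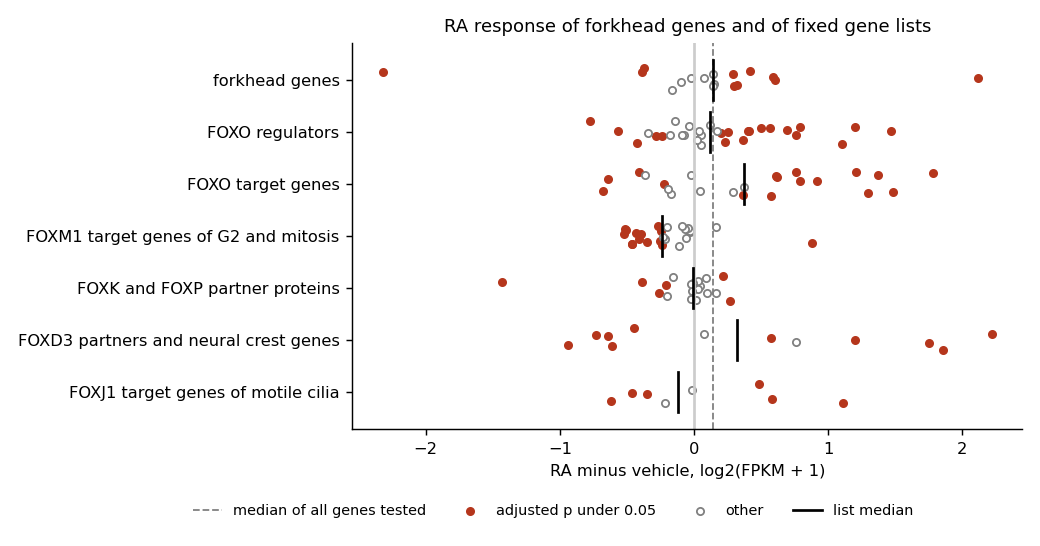
RA minus vehicle on the log2(FPKM + 1) scale for the 17 tested forkhead genes and the tested genes of 6 lists, with 1 point per gene (red where the limma adjusted p was under 0.05) and a black bar at each median. The dashed line is the median of all genes tested, 0.14; the FOXM1 target list is centred below it at -0.24 and the FOXO target list above it at 0.37, with wide overlap.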

How the data were processed

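RNA was sequenced as single-end 51-base reads from 6 libraries, 1 per line and treatment. The authors made the deposited FPKM values with TopHat2 and Cufflinks on build mm9, per the submitters' processing notes, which name no versions. Of 20793 rows, 2 with a failed estimate were left out, and the highest row per repeated symbol was kept (20460 genes). Genes averaging 1 FPKM or more (11227) entered a limma 3.58.1 fit of log2(FPKM + 1), run under R 4.3.3, with terms for line and treatment (2 residual degrees of freedom, threshold 0.05), which understates the change of low genes. The line is the block. Nothing in the labels describes separate cultures, and the spread behind each p-value is that of these libraries, which may be technical. Reads per gene were approximated from FPKM, transcript length (GENCODE M21, or the deposited span where shorter) and the depth of the most common step; they carry counting error only and are rough. Starts from the table have 1 added. The members and lists were chosen with earlier results of these data known. Every member at a mean of 1 FPKM, and from each list up to 3 genes per direction ranked by change, is named, except for some items that are not reported here. Alternatives were another pseudocount (0.1), other filters, 2 scalings, limma's trend, leaving out each line, and no line block.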

Additional observations from a re-analysis of the deposited data

Results flagged for a closer look

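In 2 of the 17 tested members (11.8%) and 6.65% of all genes tested, the response of the Carm1 shRNA line had the opposite sign to that of both control lines. Foxm1 changed by 0.31 and 0.10 (log2) in the wild-type and scramble lines and by -0.18 in the Carm1 shRNA line, a difference of -0.38 ± 0.18 from the mean of the controls (limma interaction, adjusted p = 1.00, unadjusted p = 0.0944). Foxo6 changed by -0.45 and -0.06 in the wild-type and scramble lines and by 0.02 in the Carm1 shRNA line, a difference of 0.27 ± 0.22 (limma interaction, adjusted p = 1.00, unadjusted p = 0.27). Neither difference passed the test, and each line had 1 library per treatment.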

How the results depend on the processing

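Foxd3 and Foxn2 kept direction and call in all alternatives in which they were tested. Calls with RA were higher in 67.4% of called genes, against 50.2% with median-of-ratios scaling and 43.7% with quantile normalization. Members higher with RA numbered 7, but 4 at a mean of 5 FPKM, 3 with quantile normalization and 3 to 7 when a line was left out. Members lower numbered 3, but 8 with quantile normalization and 2 to 3 when a line was left out. Quantile normalization reversed Foxk1 (-0.18), Foxo1 (-0.20) and Foxn3 (-0.10). Genes called between the Carm1 shRNA and scramble lines numbered 2, but 0 with no filter, 9 at 5 FPKM, 0 with quantile normalization and 22 with limma's trend. Between the scramble and wild-type lines they numbered 201, but 64 with a pseudocount of 0.1, 0 with no filter, 420 at 5 FPKM, 91 with quantile normalization and 853 with trend, which also called 1 member lower. Between the Carm1 shRNA and wild-type lines they numbered 638, but 406 with a pseudocount of 0.1, 10 with no filter and 1284 with trend. The member count of 1 (Foxo6) became 0 with that pseudocount, 0 with no filter, 0 with quantile normalization and 3 with trend (Foxd3, Foxo3 and Foxo6). At a mean of 5 FPKM, where Foxo6 was not tested, the 1 member called was Foxo3. The interaction had 0 calls, and 1 with trend. At 2-fold from both other lines, the wild-type RA library had 0 members, but 1 with a pseudocount of 0.1 and 2 at 1.5-fold. List counts with no filter were 8 FOXO regulators higher, 7 FOXO targets higher and 1 lower, 3 FOXM1 targets lower, 2 FOXD3 partners higher and 0 lower, and 1 FOXJ1 target lower. At 5 FPKM, 2 FOXD3 partners and 1 FOXJ1 target were higher. With median-of-ratios scaling, 9 FOXO regulators were higher and 11 lower, 7 FOXO targets lower and 0 FOXK and FOXP partners higher. With quantile normalization, 8 FOXM1 targets and 7 FOXK and FOXP partners were lower, and 1 FOXJ1 target was higher and 5 lower. When a line was left out, FOXO regulators numbered 10 to 11 higher and 2 to 6 lower, FOXO targets 10 to 13 higher and 2 to 3 lower, FOXM1 targets 4 to 16 lower, FOXK and FOXP partners 0 to 1 higher and 2 to 3 lower, FOXD3 partners 4 to 6 higher and 2 to 4 lower, and FOXJ1 targets 2 to 3 higher and 2 to 3 lower. The cause of these shifts was not tested. Leaving a line out lowers the residual degrees of freedom to 1. The line as block pairs each vehicle library with the RA library of its line, and without that block 5 members were higher and 3 lower.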
